A study of Mus musculus with 6 samples.

Results

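The genes described here are Ctla2a and Ctla2b, which encode small inhibitors of cysteine proteases, and 7 cathepsins, the proteases of lysosomes: Ctsl, Ctsb, Ctsd, Ctss, Ctsz, Ctsc and Ctsw. Ctla2a was picked from the measured values, for its rise in the libraries labelled cKO. Ctla2b was added as its paralogue and the cathepsins as a family. Of the 7, Ctsd is an aspartic protease and so not of the inhibitors' protease class. Each of the 9 names matched 1 of the 36811 rows of the table through its Ensembl identifier, and all 9 had a mean of at least 1 FPKM, the filter for testing. FPKM is a fragment count divided by transcript length and library size, so levels of genes of different length can be set side by side.

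The cells were splenic regulatory T cells (Treg) of C57BL/6 mice aged 18 to 21 weeks, sorted by the EGFP that marks Foxp3 expression, and each RNA pool was sequenced in bulk. There were 3 libraries labelled cKO, with the genotype Bach2fl/fl Foxp3EGFP-Cre-ERT2, and 3 labelled WT, with the genotype Bach2+/+ Foxp3EGFP-Cre-ERT2. Both groups thus carried EGFP and the inducible recombinase Cre-ERT2 at Foxp3, and the Bach2 alleles differed. The sources used here give neither tamoxifen treatment, on which Cre-ERT2 depends, nor the number of mice behind a library, so a p-value covers only how these libraries vary, which may be technical. Values of single libraries stand in the order of replicates 1, 2 and 3. In bulk RNA, a change in the share of cells that express a gene and a change in RNA per cell cannot be told apart.

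Cathepsins are made as inactive precursors whose amino-terminal propeptide blocks the active site until it is removed in the acid lysosome. CTLA-2 proteins resemble such a free-standing propeptide of the cathepsin L type, and Ctla2a was first described in activated T cells of the mouse. In antigen-presenting cells cathepsins cut antigens and the invariant chain of MHC class II, and in cytotoxic lymphocytes cathepsin C activates granzymes.

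The paralogues lie close together on chromosome 13, which also carries Ctsl, and they are nearly alike in sequence. The coding sequence of the transcript Ctla2a-201 has 411 bases and that of Ctla2b-201 has 339, without the stop codon, and 326 of 339 aligned bases (96.2%) are identical. The stretch below, 120 bases from spliced coding position 73 of Ctla2a and from position 1 of Ctla2b, is shown because the distinction between the 2 rows rests on such differences. The sequences are from GENCODE M21 on GRCm38, minus strand, and capitals mark the 6 bases that differ.
Ctla2a: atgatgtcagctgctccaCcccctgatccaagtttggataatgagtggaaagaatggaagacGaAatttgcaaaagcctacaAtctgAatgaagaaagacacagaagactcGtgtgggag
Ctla2b: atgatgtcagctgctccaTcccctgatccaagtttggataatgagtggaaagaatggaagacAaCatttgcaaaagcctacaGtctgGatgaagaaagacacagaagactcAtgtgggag
Of the 1324 windows of 50 bases in Ctla2a-201, 94 (7.10%) also occur in a Ctla2b transcript, and of the 793 windows of Ctla2b-201, 94 (11.9%) occur in a Ctla2a transcript. No window of 100 bases is shared. How the counting placed fragments that fit both genes is not given in the sources used here, so the split between the paralogues is uncertain. Ctla2a had many more fragments than Ctla2b, so fragments of Ctla2a placed wrongly could make up a large part of the Ctla2b values, and their number was not tested. Translated, Ctla2a-201 aligned with residues 5 to 132 of the 334 of Ctsl, its amino-terminal part, with 43 of 120 aligned residues identical (35.8%). It aligned with residues 30 to 96 of the 341 of Ctss with 30 of 66 identical (45.5%).

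The promoters of the paralogues are alike too. RefSeq windows of 250 bases before and 50 after the start, on GRCm38.p6, were present for 7 of the 9 genes, without Ctsb and Ctsw, and Ctla2a had a pair of overlapping windows. Over the upstream parts, 208 of 228 aligned bases of Ctla2a and Ctla2b (91.2%) were identical. The motif TGANTCA, the core of sites for Bach and AP-1 factors, was searched on both strands because Bach2 is the gene altered in these mice, and it reads the same on both strands. It was in 3 of the 8 windows of these genes, both of Ctla2a and the 1 of Ctla2b, and in 7.81% of all 32851 windows. Both Ctla2a windows hold the same match and the Ctla2b window is nearly alike, so these are not separate cases. The stretches around it are at chr13:60936688-60936804 for Ctla2a and chr13:60897524-60897640 for Ctla2b, both on the minus strand, with the match in capitals.
Ctla2a: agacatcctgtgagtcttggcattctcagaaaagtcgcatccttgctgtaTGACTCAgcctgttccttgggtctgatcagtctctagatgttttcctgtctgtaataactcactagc
Ctla2b: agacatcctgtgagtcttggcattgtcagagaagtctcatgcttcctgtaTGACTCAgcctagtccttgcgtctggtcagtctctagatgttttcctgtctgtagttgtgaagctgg
The first base of the match lies 143 bases before the start of Ctla2b, and 129 or 188 bases before that of Ctla2a, depending on the start. The motif TCACGTGA, the core of sites of TFEB, a factor of lysosomal genes, was in 1 of the 8 windows and in 0.974% of all windows. That window was of Ctsd, where the match begins 99 bases before the start, at chr7:142387869-142387976 on the minus strand.
Ctsd: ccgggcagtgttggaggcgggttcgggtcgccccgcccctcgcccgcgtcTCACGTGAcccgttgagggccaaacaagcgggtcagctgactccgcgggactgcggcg
These matches describe letters only. Neither binding nor use of a site was measured.

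Facts of the whole table that touch these values are few. FPKM sums lay between 1502820 and 1940810 per library, and the 4 highest rows took 32.4% to 46.9% of a sum. The steps between low FPKM values put the scale from fragments to FPKM at 3020000 to 5020000 fragments per library. Bach2, the targeted gene, stood at 7.88, 9.19 and 6.44 FPKM across the cKO libraries, against 3.29, 8.25 and 4.80 FPKM across the WT libraries (limma, Benjamini-Hochberg adjusted p = 0.925). It was thus not lower in the libraries labelled cKO. A value over the whole gene does not check a deletion of part of it, so directions below rest on the labels. All 8 Treg markers were detected. Without a library of other cells for comparison, detection does not by itself check the Treg label. Foxp3 itself lay between 5.16 and 9.44 FPKM. Markers of other cells were detected as well and are given after the results.

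Ctla2a was higher in the libraries labelled cKO by a ratio of means of 2.37, at a level between Ctsc and Ctsl. It stood at 51.6, 49.98 and 50.8 FPKM across the cKO libraries, against 19.2, 18.9 and 26.3 FPKM across the WT libraries. Every library labelled cKO was above every library labelled WT, the nearest pair being cKO 2 and WT 3. The means were 50.8 ± 0.829 and 21.5 ± 4.18 FPKM (SD, n = 3 each), and the log2 difference of FPKM + 1 was 1.22. Since this contrast chose the gene, no test is given for it. About 256, 344 and 274 fragments lay behind the values in the libraries labelled cKO and about 120, 79 and 142 behind those labelled WT, from the scale above and the length of 1373 bases of Ctla2a-201. Counting alone would give a spread of about 5.89% between the libraries labelled cKO, and the measured one was 1.63%. In the libraries labelled WT these were 9.59% and 19.5%. The log2 difference was 1.37 with libraries scaled to equal sums, 1.37 without WT replicate 3 and 1.09 with a pseudocount of 5.

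Ctla2b, the paralogue with the like promoter and coding sequence, stood far lower and showed no separation. Its values were 3.97, 8.28 and 4.92 FPKM across the cKO libraries, against 5.16, 2.57 and 4.70 FPKM across the WT libraries. The highest was in cKO 2 and the lowest in WT 2, and the groups overlapped. The means were 5.72 ± 2.26 and 4.14 ± 1.38 FPKM (SD, n = 3 each), and their log2 difference was 0.38 with a 95% interval from -0.42 to 1.17 (limma, adjusted p = 0.926). The difference between the paralogues was not tested. About 7 to 35 fragments lay behind each value of Ctla2b. Counting alone would give a spread of about 23.6% between the libraries labelled cKO and 28.4% between those labelled WT, and the measured spreads were 39.5% and 33.3%. The log2 difference fell to 0.12 without cKO replicate 2, and it was 0.13 without WT replicate 2 and 0.16 with library quality weights. Within a library, Ctla2a was 13.0, 6.04 and 10.3 times Ctla2b across the cKO libraries, against 3.72, 7.37 and 5.60 times across the WT libraries, and these ratios overlapped.

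**Figure D1:**
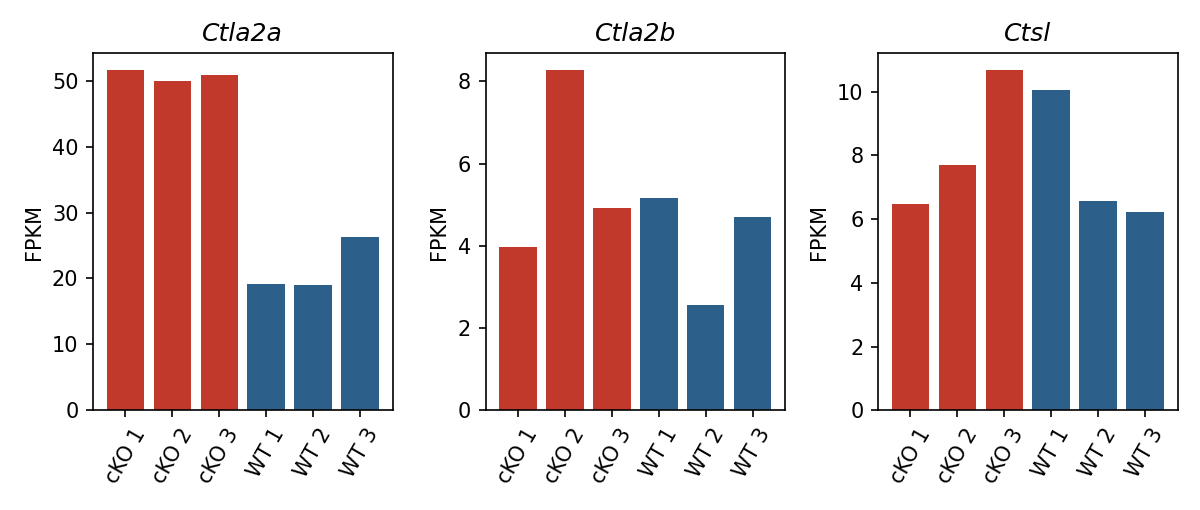
FPKM (vertical axes, from 0, a different scale for each gene) of Ctla2a, Ctla2b and Ctsl in each library, 1 bar per library, red for cKO and blue for WT. The Ctla2a bars stand at 49.98 to 51.6 in the libraries labelled cKO and at 18.9 to 26.3 in those labelled WT, while the bars of Ctla2b and Ctsl overlap between the groups.

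Ctsl, the cysteine protease whose type of propeptide CTLA-2 proteins resemble, was the lowest of the 7 cathepsins. It stood at 6.49, 7.70 and 10.7 FPKM across the cKO libraries, against 10.1, 6.57 and 6.23 FPKM across the WT libraries. The highest values were in cKO 3 and WT 1, and the groups overlapped. The log2 difference was 0.11 with a 95% interval from -0.51 to 0.73 (limma, adjusted p = 0.977). It turned to -0.068 when cKO replicate 3 was left out and to -0.0037 when WT replicate 3 was. Ctsl made up 0.389% to 0.691% of the summed FPKM of the 7 cathepsins. The ratio of Ctla2a to Ctsl was 7.96, 6.49 and 4.76 across the cKO libraries, against 1.91, 2.88 and 4.22 across the WT libraries. Its groups did not overlap, and it carries the difference of Ctla2a that chose the gene.

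The other 6 cathepsins were expressed at levels well above both inhibitors, and their order was the same in each of the 6 libraries. Ctss came first, followed by Ctsd, Ctsb, Ctsz, Ctsw and Ctsc, with Ctla2a next. Ctla2b and Ctsl took the last ranks, Ctsl above Ctla2b in 5 of 6 libraries and below it in cKO 2. Over the 6 libraries the ranges of FPKM overlapped between Ctss and Ctsd, between Ctsb and Ctsz, between Ctsz and Ctsw, and between Ctsl and Ctla2b. Of those pairs, the first 3 nevertheless kept their order within 6 of 6 libraries. The ranges of Ctsd and Ctsb, of Ctsw and Ctsc, of Ctsc and Ctla2a, and of Ctla2a and Ctsl did not overlap.

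**Figure D2:**
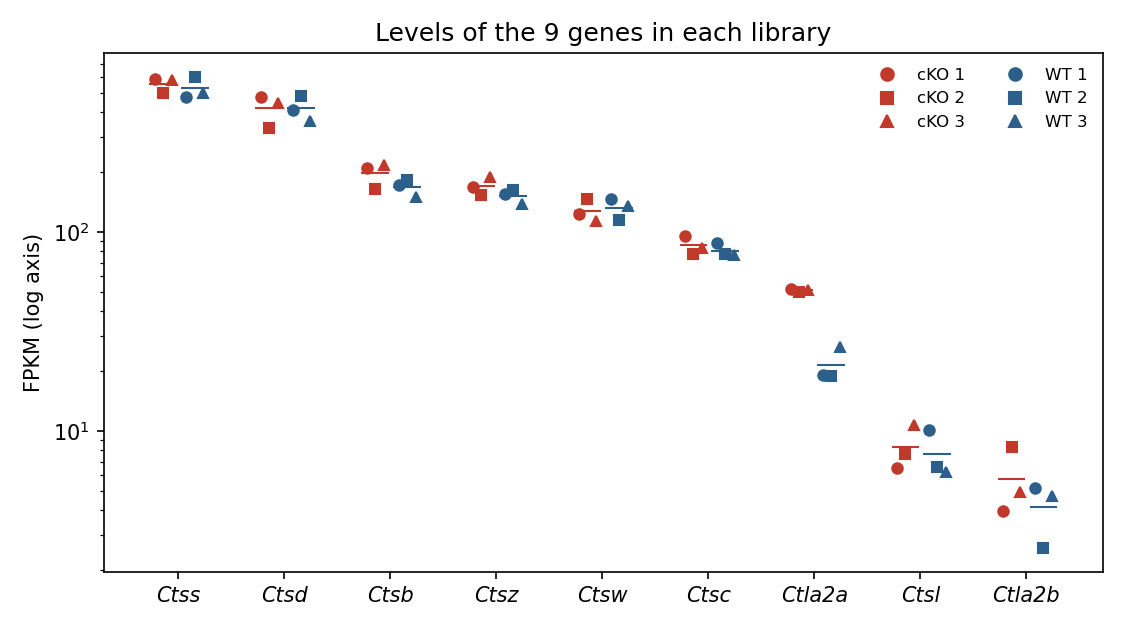
FPKM on a log axis of the 9 genes in each library, ordered by mean level, red for cKO and blue for WT, with a marker shape for each replicate number and a line at each group's mean (n = 3). The range runs from 603 FPKM for Ctss in WT 2 to 2.57 FPKM for Ctla2b in WT 2, and the red and blue points are apart for Ctla2a.

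Among the endopeptidases, Ctss encodes a cysteine protease that trims the invariant chain in antigen-presenting cells. It stood at 586, 497 and 581 FPKM across the cKO libraries, against 479, 603 and 500 FPKM across the WT libraries, with the highest value in WT 2. The log2 difference was 0.08 with a 95% interval from -0.27 to 0.43 (limma, adjusted p = 0.974). It made up 32.8% to 37.1% of the summed FPKM of the 7 cathepsins, with means of 35.6% ± 0.456 and 35.5% ± 2.32 (SD, n = 3 each) in cKO and WT. Ctsd, an aspartic protease, stood at 478, 333 and 445 FPKM across the cKO libraries, against 409, 482 and 361 FPKM across the WT libraries. It was lowest in cKO 2 and highest in WT 2. The log2 difference was -0.0028 with a 95% interval from -0.45 to 0.45 (limma, adjusted p = 0.9998), and it was 0.15 with equal sums or without cKO replicate 2.

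Ctsb encodes a cysteine protease with both endopeptidase and peptidyl-dipeptidase activity. Its values were 209, 164 and 217 FPKM across the cKO libraries, against 172, 182 and 149 FPKM across the WT libraries. The cKO 2 library lay within the range of the WT libraries and the other two lay above it. The means were 197 ± 28.3 and 167 ± 16.8 FPKM (SD, n = 3 each), and their log2 difference was 0.23 with a 95% interval from -0.15 to 0.60 (limma, adjusted p = 0.925). Leaving out cKO replicate 2 gave 0.35 and equal sums gave 0.38. Of the 21 ratios between pairs of cathepsins, 1 did not overlap between the groups, that of Ctsd to Ctsb, which was 2.29, 2.02 and 2.05 across the cKO libraries, against 2.39, 2.65 and 2.42 across the WT libraries. This ratio was singled out after the values were seen and has no test.

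The remaining 3 cathepsins trim from an end or are tied to cytotoxic cells. Ctsz, a carboxypeptidase, stood at 168, 152 and 189 FPKM across the cKO libraries, against 154, 162 and 138 FPKM across the WT libraries. The groups overlapped through cKO 2, and the log2 difference was 0.16 with a 95% interval from -0.16 to 0.49 (limma, adjusted p = 0.925). It was 0.081 with cKO replicate 3 left out, 0.061 after quantile normalization and 0.32 with equal sums. Ctsc, the dipeptidyl peptidase that activates granzymes, stood at 95.6, 77.8 and 83.4 FPKM across the cKO libraries, against 87.5, 77.7 and 76.6 FPKM across the WT libraries. Its highest value was in cKO 1, the groups overlapped, and the log2 difference was 0.08 with a 95% interval from -0.24 to 0.40 (limma, adjusted p = 0.964). It was 0.00079 with cKO replicate 1 left out and 0.24 with equal sums. Ctsw, a cathepsin known from cytotoxic T cells and NK cells, stood at 123, 147 and 114 FPKM across the cKO libraries, against 146, 114 and 135 FPKM across the WT libraries. Its lowest values were in cKO 3 and WT 2 and its highest in cKO 2 and WT 1, so the groups overlapped. The log2 difference was -0.042 with a 95% interval from -0.42 to 0.33 (limma, adjusted p = 0.989), and it was 0.11 with equal sums. By annotation, exons of Ctsb overlap those of Fdft1 on the opposite strand, those of Ctsz overlap Nelfcd and those of Ctsw overlap Fibp. The strand setting of the counting is not given in the sources used here, so fragments of these pairs may not be told apart.

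None of the 8 genes other than Ctla2a passed an adjusted p of 0.05, against 3 of 11979 genes tested (0.025%) over the whole table. Ctla2a was the 1 gene of the 9 whose groups did not overlap with the libraries labelled cKO higher, a separation seen in 6.96% of the genes tested, and 0 of the 9 were separated the other way, against 3.75%. For Ctla2a this separation is what chose it. For the 7 cathepsins, the upper ends of the 95% intervals lay between 0.33 and 0.73 and the lower ends between -0.51 and -0.15. The summed FPKM of the 7 cathepsins was 1562 ± 159 in cKO and 1483 ± 133 in WT (SD, n = 3 each). The spread over the 6 libraries, as the SD in percent of the mean, was 45.1% for Ctla2a, 38.2% for Ctla2b and 24.5% for Ctsl. It was 8.93% to 14.8% for the other 6 cathepsins. For Ctla2a this spread includes the contrast that chose the gene, and within cKO and WT it was 1.63% and 19.5%.

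**Figure D3:**
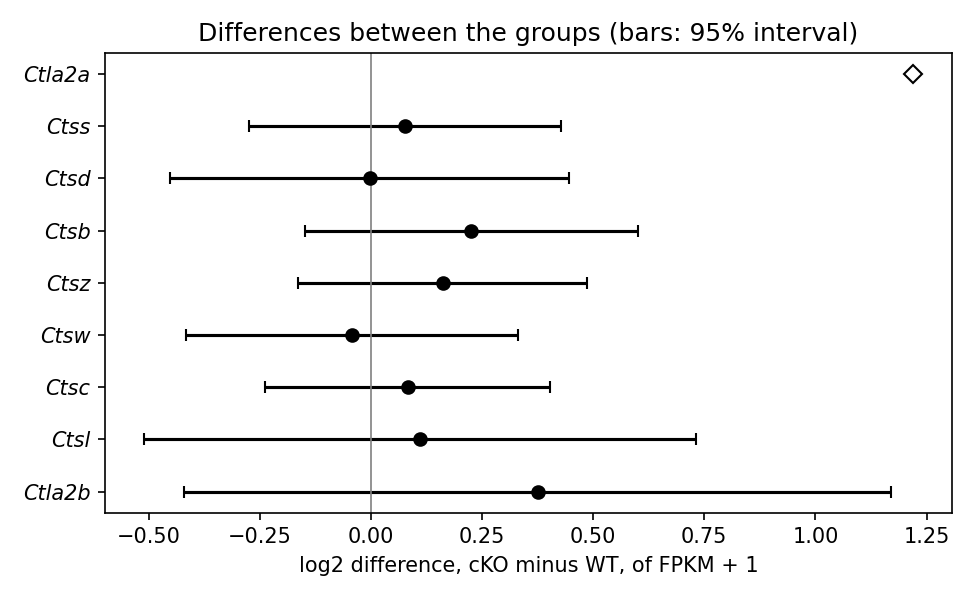
Log2 difference of FPKM + 1, cKO minus WT (horizontal axis), of each gene, with its 95% interval from limma (n = 3 libraries per group); Ctla2a is an open symbol without an interval because this contrast chose it. The 8 intervals all include 0, and the widest, of Ctla2b, runs from -0.42 to 1.17.

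Over the 6 libraries, none of the other 8 genes followed Ctla2a closely. Pearson correlations of log2(FPKM + 1) with Ctla2a were 0.49 for Ctla2b, 0.49 for Ctsb, 0.46 for Ctsz, 0.30 for Ctsc, 0.22 for Ctss, 0.10 for Ctsl, -0.11 for Ctsd and -0.11 for Ctsw. Among 8446 other genes with a symbol and a mean of at least 5 FPKM, the closest profiles were those of Hacl1 (r = 0.99), Eif4a1 (0.99), Ppp1r21 (0.99), Nras (0.99) and the predicted gene Gm17041 (0.98). Of the 8446 genes, 87 (1.03%) had r of at least 0.9. Hacl1, an enzyme of fatty acid alpha-oxidation, stood at 33.3, 32.0 and 33.2 FPKM across the cKO libraries, against 25.7, 25.3 and 28.6 FPKM across the WT libraries. Eif4a1, a helicase of translation initiation, stood at 150, 152 and 154 FPKM across the cKO libraries, against 121, 124 and 129 FPKM across the WT libraries. As with Ctla2a, WT 3 was the highest of the WT libraries in all 5, and the likeness includes the contrast between groups on which Ctla2a was picked.

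Most cathepsins beyond the 7 were listed at 0 in all libraries. Of 17 further family members, 10 were so listed, among them Ctsk and the placental cathepsins Ctsj, Ctsm, Ctsq and Ctsr, and 5 were tested. None of the 5 passed, against 0.025% of all genes tested. None had groups that did not overlap, against 6.96% of all genes tested with cKO higher and 3.75% with cKO lower. Of the 5, 4 had a difference above 0, with a median of 0.17 against 0.033 for all genes tested, of which 55.0% were above 0. Ctsa, a serine carboxypeptidase that also stabilises other lysosomal enzymes, had a level among those of the 7, at 318 ± 14.6 FPKM in cKO and 286 ± 66.0 FPKM in WT (SD, n = 3 each; limma, adjusted p = 0.934). Ctse, an aspartic protease, stood at 32.6 ± 11.6 and 27.7 ± 4.05 FPKM, Ctso at 28.5 ± 5.49 and 28.4 ± 5.37, Ctsh at 18.8 ± 3.797 and 14.9 ± 7.05, and Ctsf at 1.97 ± 0.915 and 3.45 ± 1.52. The median of these 5 turned to -0.024 without cKO replicate 3 and to -0.035 without WT replicate 3.

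The other inhibitors of lysosomal and granule proteases included genes far above Ctla2a. Of 13 listed, 7 were tested and 0 passed, against 0.025% of all genes tested. Of the 7, 5 had a difference above 0, against 55.0% of all genes tested, and the median was 0.23 against 0.033. Cst7, the leukocyte cystatin known to act on cathepsin C, stood at 426, 347 and 359 FPKM across the cKO libraries, against 378, 354 and 347 FPKM across the WT libraries (limma, adjusted p = 0.975). Its groups overlapped, and its mean of 378 FPKM in cKO compares with 50.8 for Ctla2a. Cst3, a secreted cystatin, stood at 172, 293 and 184 FPKM across the cKO libraries, against 185, 150 and 206 FPKM across the WT libraries, and Cstb, the cytosolic stefin B, at 96.0, 202 and 112 FPKM across the cKO libraries, against 99.1, 78.7 and 130 FPKM across the WT libraries. Both were highest in cKO 2, and the list's median was 0.047 without that library and 0.011 with library quality weights. Among the serpins, Serpinb6a stood at 77.7 ± 5.99 and 66.6 ± 11.4 FPKM in cKO and WT, Serpinb9, the granzyme B inhibitor, at 15.03 ± 2.37 and 15.8 ± 3.22, Serpinb6b at 11.7 ± 0.966 and 11.9 ± 0.140, and Serpinb1a at 9.28 ± 4.46 and 6.33 ± 2.48 (SD, n = 3 each). No serpin had separated groups, against 6.96% of all genes tested with the libraries labelled cKO higher and 3.75% with them lower.

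Genes that deliver cathepsins to the lysosome showed no common direction. Of 26 tested genes of lysosomal transport, membrane and hydrolases, 0 passed, against 0.025% of all genes tested. Of the 26, 15 were above 0, with a median of 0.030 against 0.033 for all genes. In 3 of them (Tfeb, Gnptg and Scarb2, the last named after its values were seen) the groups did not overlap, with the libraries labelled cKO higher, against 6.96% of all genes tested. Tfeb stood at 38.6, 24.98 and 22.2 FPKM across the cKO libraries, against 18.0, 14.9 and 9.33 FPKM across the WT libraries, a log2 difference of 0.98 (limma, adjusted p = 0.874). Gnptg, a subunit of the enzyme that tags hydrolases with mannose 6-phosphate, stood at 65.3, 61.3 and 57.7 FPKM across the cKO libraries, against 48.9, 36.8 and 48.4 FPKM across the WT libraries (limma, adjusted p = 0.915). Gnptab, also of this tagging enzyme, lay the other way, at 7.18 ± 4.47 FPKM in cKO and 13.3 ± 3.75 FPKM in WT (SD, n = 3 each). Its groups overlapped, and the log2 difference was -0.97 (limma, adjusted p = 0.925). Of the receptors for that tag, M6pr stood at 141 ± 12.4 and 113 ± 19.3 FPKM and Igf2r at 13.3 ± 2.27 and 19.2 ± 5.54 FPKM in cKO and WT (SD, n = 3 each; limma, adjusted p = 0.925 for both). Scarb2, a lysosomal membrane protein, stood at 40.4 ± 4.07 and 33.1 ± 3.48 FPKM.

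Granule genes linked to Ctsc and genes of MHC class II processing were mixed. Of 6 tested granule genes 0 passed, against 0.025% of all genes tested, and 4 were above 0 with a median of 0.24. Gzmc and Srgn had groups that did not overlap, both higher in the libraries labelled cKO, against 6.96% of all genes tested. The median of this list was 0.46 without cKO replicate 2, 0.467 with no filter and 0.470 with library quality weights. Srgn, the proteoglycan of secretory granules, stood at 1248, 1312 and 1724 FPKM across the cKO libraries, against 949, 1019 and 1103 FPKM across the WT libraries, a log2 difference of 0.47 (limma, adjusted p = 0.915). Gzmb stood at 16.4 ± 5.84 and 8.11 ± 2.98 FPKM, Gzmc at 4.74 ± 0.867 and 2.48 ± 0.876, and Gzmm at 1.04 ± 0.769 and 2.30 ± 0.692 in cKO and WT (SD, n = 3 each). Of 11 tested class II processing genes 0 passed, against 0.025% of all genes tested, and 6 were above 0 with a median of 0.23. Ifi30 and H2-DMa had groups that did not overlap, again higher in the libraries labelled cKO, against 6.96% of all genes tested. The median of the 11 genes was -0.077 without WT replicate 3, 0.045 without cKO replicate 2 and 0.038 with library quality weights. Ifi30, a thiol reductase that works beside cathepsins on antigen, stood at 65.6, 61.1 and 60.6 FPKM across the cKO libraries, against 47.3, 40.3 and 46.8 FPKM across the WT libraries, a log2 difference of 0.47 (limma, adjusted p = 0.863). H2-DMa, a chain of the peptide-loading catalyst, stood at 143 ± 14.3 and 116 ± 8.99 FPKM, and H2-DMb2, of its partner chain, at 14.2 ± 3.10 and 9.85 ± 3.07 FPKM (SD, n = 3 each). H2-Ob, a chain of the inhibitor of that catalyst, lay the other way, at 19.3 ± 3.61 FPKM in cKO and 23.3 ± 2.53 FPKM in WT (SD, n = 3 each).

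**Figure D4:**
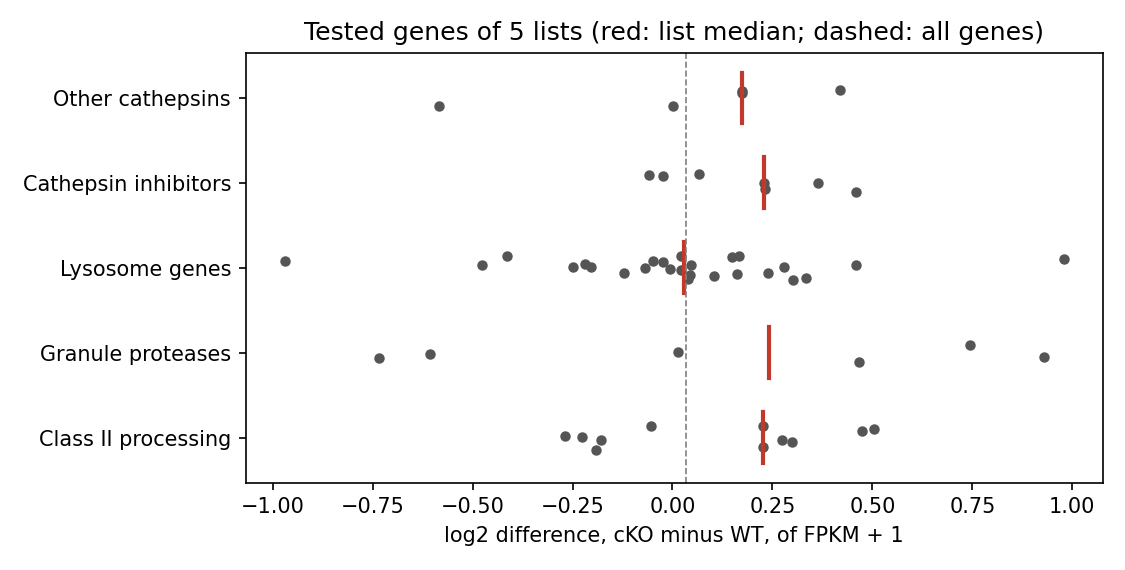
Log2 difference of FPKM + 1, cKO minus WT (horizontal axis), of each tested gene of 5 lists, 1 point per gene, with the list median in red and the median of all 11979 genes tested as a dashed line at 0.033. Points lie on both sides of 0 in each list, and no point passed the test.

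Several of these cathepsins are abundant in myeloid or cytotoxic cells, so the markers of other cells are given beside them. Of 14 myeloid markers 10 were tested, 8 with a difference above 0, and their summed FPKM was 430, 920 and 255 across the cKO libraries, against 321, 346 and 207 across the WT libraries. The highest sum, in cKO 2, came with 545 FPKM of S100a8 and 245 of S100a9. In that library Ctss, Ctsd, Ctsb, Ctsz and Ctsc were lowest of the libraries labelled cKO, Ctsl lay between and Ctsw was highest. The summed FPKM of the Treg markers was also lowest there, at 8190 against 10614 and 11221, though Foxp3 was highest at 9.44. The FPKM sum of cKO 2, 1502820, was the lowest of all libraries. Lyz2, the lysozyme of macrophages and granulocytes, stood at 76.6, 83.2 and 64.7 FPKM across the cKO libraries, against 50.7, 71.4 and 35.5 FPKM across the WT libraries, and its groups overlapped. Adgre1, a macrophage marker, stood at 3.32, 2.83 and 2.08 against 1.88, 2.05 and 1.66 FPKM, without overlap. The nearest pair was 2.08 and 2.05 FPKM, and 6.96% of all genes tested were separated with the libraries labelled cKO higher. C1qa lay between 5.44 and 14.9 FPKM, and Ly6g, a granulocyte marker, was at 3.77 and 2.71 FPKM in cKO 1 and cKO 2 and listed at 0 in the other 4 libraries. The 4 untested markers (Cd14, Itgam, Siglech and Clec9a) averaged under 1 FPKM, and Clec9a was listed at 0 throughout.

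Of 8 CD8 and NK markers 3 were tested, with 2 above 0, and the sum was 106 to 132 FPKM in cKO and 83.4 to 105 FPKM in WT, higher in each library labelled cKO. Nkg7, a granule protein of cytotoxic cells, made up most of it, at 83.3, 107 and 89.2 FPKM across the cKO libraries, against 79.2, 62.6 and 59.6 FPKM across the WT libraries, without overlap. Klrd1, an NK cell receptor chain, was separated the other way, at 0, 0.546 and 0.336 against 3.46, 1.81 and 1.35 FPKM. Of all genes tested, 6.96% were separated with the libraries labelled cKO higher and 3.75% with them lower. Cd8b1 lay between 18.8 and 22.4 FPKM, and the 5 untested markers, Cd8a among them, averaged under 1 FPKM. Of 6 B cell markers 5 were tested, with 4 above 0, and the sum was 114 to 155 in cKO and 106 to 150 in WT, led by Cd79b at 80.5 to 112 FPKM. Of 6 erythroid markers 5 were tested, 5 above 0, and the sum was 252, 473 and 514 in cKO and 230, 94.4 and 229 in WT, also higher in each library labelled cKO. Its alpha globin Hba-a2 stood at 59.5, 95.6 and 128 FPKM across the cKO libraries, against 32.8, 13.5 and 34.3 FPKM across the WT libraries. Their part in the values of the 9 genes was not tested.

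**Figure D5:**
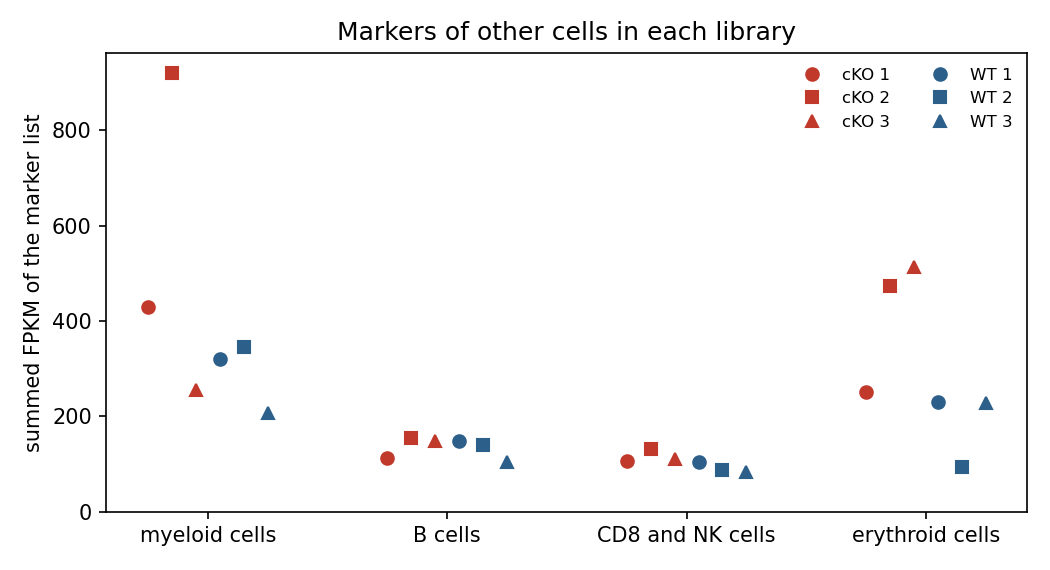
Summed FPKM (vertical axis, from 0) of 4 lists of markers of other cells in each library, red for cKO and blue for WT, with a marker shape for each replicate number. The myeloid sum is highest in cKO 2 at 920, and the erythroid sums of 252 to 514 in the libraries labelled cKO lie above the 94.4 to 230 of those labelled WT.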

How the data were processed

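The authors deposited FPKM values for 36811 genes in 6 libraries, a file whose name points to cuffnorm. SmartSeq2 made the libraries, per the labels' protocols. The submitters' processing notes name HISAT2, cutadapt and FastQC and the builds NCBIM37 and mm9; the sources used here give neither annotation nor strand setting. Identifiers were matched to symbols through GENCODE M21 (GRCm38), 31840 of 36811. Genes averaging 1 FPKM or more were tested with limma 3.58.1 (R 4.3.3) on log2(FPKM + 1), all 6 libraries, variance trend, no block, Benjamini-Hochberg over 11979 genes, threshold 0.05. This scale understates changes of low genes. The procedure was tested on simulated data. The fragment scale was taken from low values of genes with 1 transcript of at least 2000 bases, of which 66.9% to 76.2% were whole multiples within 0.05, so fragment numbers are approximate and cover counting error only. Alignments used Biopython 1.88. The genes and lists were chosen with earlier results of these data known. Text names all 9 genes, the tested cathepsins and inhibitors, up to 4 genes of each other list by smallest p, Bach2 and the 5 closest profiles. Scarb2, Gnptab, Foxp3, S100a8, S100a9, Cd79b and the untested markers are named outside this rule, after their values were seen. The lists for markers of other cells and of Treg are summed per library. A 0 in the table is given only as listed. No batch is given in the labels. Alternatives were other pseudocounts (0.1 and 5), filters (none and 5 FPKM), scalings, variance models, a block for replicate number, and leaving out 1 library at a time, with the filter reapplied.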

Additional observations from a re-analysis of the deposited data

How the results depend on the processing

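All alternatives were planned. None of the 8 tested genes passed in any of the 16, Ctla2b in the 15 where it met the filter, nor did any with the replicate block. Ctla2a kept a log2 difference from 1.09 to 1.37. Equal sums moved the median difference of all genes from 0.033 to 0.18. The count of genes called over the table was 3, against 1 under the replicate block, and 5 to 15 when 1 library was left out (15 without WT replicate 2). Libraries of the same number did not deviate together (correlations -0.060, -0.18 and -0.017, below the largest of other pairs, 0.13). Ctsd turned to 0.15 with equal sums and 0.086 with library quality weights, Ctsw to 0.11 with equal sums and Ctss to -0.032 after quantile normalization. Without 1 library Ctsl ranged from -0.068 to 0.30, Ctsd from -0.11 to 0.15 and Ctsw from -0.14 to 0.037. These differences did not pass on either side, and the cause was not tested. Ctla2b and Ctsl had the fewest fragments, about 7 to 35 and 39 to 91 per library. For Ctsl, counting alone would give a spread of about 12.4% in cKO and 13.6% in WT. The measured spreads were 26.0% and 27.9%.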
